A study of Mus musculus with 8 samples.

Results

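Peroxins are the proteins, encoded by the *Pex* genes, that build and maintain the peroxisome. The genes described here are 8 mouse peroxins among the 16540 genes of the deposited count table, chosen by symbol: *Pex11a*, *Pex11g*, *Pex3*, *Pex16*, *Pex19*, *Pex5*, *Pex6* and *Pex13*. A further 9 peroxin genes with their own entry in the table serve for comparison. These genes and the gene lists below were chosen with earlier results of these data known. Their counts beside those of all genes are therefore descriptions. Liver mRNA was sequenced from 4 vehicle mice and 4 ISOGK mice, all male *Apoe*-/- animals fed a Western diet, which the study's methods describe as rich in cholesterol. ISOGK, isoginkgetin, is a biflavonoid of *Ginkgo biloba*, and it was given at 20 mg/kg/day by intraperitoneal injection for 8 weeks after a first period on the diet alone. The vehicle columns of the table are named for DMSO. Both groups carry the whole-body *Apoe* knockout, and no chow-fed or *Apoe* wild-type group was analysed here, so every comparison is ISOGK against vehicle in 1 genotype, 1 diet, 1 sex and 1 dose. The sources used here do not give the ages of these mice. The question asked of the data was whether the *Pex11* genes, which act in peroxisome proliferation, and the genes of the import machinery responded alike.

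Peroxisomes are single-membrane organelles that shorten very long chain fatty acids, break down hydrogen peroxide and complete the synthesis of bile acids and ether lipids, and hepatocytes hold many of them. They have no DNA, so their proteins are made in the cytosol and brought in with the help of peroxins. PEX19, PEX3 and PEX16 place proteins into the membrane, PEX5 carries enzymes to a docking site that includes PEX13, PEX6 helps to pull the receptor out again for reuse, and the PEX11 proteins elongate the membrane before division. In rodent liver, ligands of the nuclear receptor PPAR alpha are known to enlarge the peroxisome population, and *Pex11a* is known as the member of its family that such ligands induce.

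The stretches upstream of *Pex11a*, *Pex11g* and *Pex16* are shown because these genes are the members of the *Pex11* pair and the peroxin with the largest rise, described below. They come from RefSeq (GRCm38.p6), are printed 5′ to 3′ on the strand of the gene and stop short of annotated exons. Capitals mark AGGTCA, the core site of nuclear receptors, and GGGCGG, the GC box, in the direction printed. The *Pex11a* stretch is chr7:79743184-79743381 on the minus strand (198 bases), the *Pex11g* stretch is chr8:3467681-3467898 on the minus strand (218 bases), and the *Pex16* stretch is chr2:92374426-92374675 on the plus strand (250 bases).
Pex11a: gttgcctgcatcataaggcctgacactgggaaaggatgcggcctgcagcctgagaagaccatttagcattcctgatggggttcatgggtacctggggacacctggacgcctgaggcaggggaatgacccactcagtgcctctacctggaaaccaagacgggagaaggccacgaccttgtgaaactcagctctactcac
Pex11g: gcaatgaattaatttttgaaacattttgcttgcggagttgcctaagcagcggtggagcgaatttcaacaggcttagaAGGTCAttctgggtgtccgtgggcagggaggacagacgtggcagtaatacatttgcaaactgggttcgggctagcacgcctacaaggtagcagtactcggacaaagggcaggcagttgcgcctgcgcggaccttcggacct
Pex16: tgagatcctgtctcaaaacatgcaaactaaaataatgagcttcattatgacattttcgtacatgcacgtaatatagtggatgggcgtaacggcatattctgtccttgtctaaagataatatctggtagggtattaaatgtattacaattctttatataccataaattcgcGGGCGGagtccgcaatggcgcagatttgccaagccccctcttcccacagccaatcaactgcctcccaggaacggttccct

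The letters were compared with 32851 RefSeq windows of 27025 genes, each running from 250 bases before to 50 after a start. Such windows were found for 11 of 17 peroxins and for 7 of the 8 members, and none for *Pex19*. The core site, read on both strands, lay in 16.3% of all windows and in the window of 1 peroxin, *Pex11g*. A direct repeat of that core site with 1 base between the copies, which PPAR alpha binds with its partner RXR, lay in 13 windows of the whole table and in 0 of the peroxins. GGGCGG, also read on both strands, lay in a window of 9 of the 11 peroxins and in 35.7% of all windows. The peroxin counts are of genes, and *Pex5* and *Pex16* have more than 1 window, so they do not compare directly with these shares of windows. Peroxin windows held 7 to 39 CG pairs, against a median of 7 over all windows. In *Pex11a* and *Pex11g* that match lay closer to the start than the stretches printed above. These matches describe the letters in short windows and say nothing of a factor bound there.

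The libraries held between 17457106 and 24461854 counts, from 19605286 upwards for vehicle mice and up to 21626399 for ISOGK mice. Each value below is a normalized read count, scaled to library size (CPM) with TMM factors. Each fold change and adjusted p is from edgeR's quasi-likelihood test over the 12307 genes that passed its filter on low counts. The standard error (SE) of a log2 fold change was derived from it and the F statistic of that test. The 95% intervals were built from this SE. That the libraries are separate mice rests on their labels. *Apoe* itself had 3252 to 6489 counts in every library, so its counts per gene do not check the genotype.

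Of the 8 peroxins, 8 passed the filter, with 340 to 2467 counts in a library. At an adjusted p under 0.05, 5 were higher with ISOGK (*Pex11a*, *Pex3*, *Pex16*, *Pex19* and *Pex13*), 0 were lower and 3 were not called (*Pex11g*, *Pex5* and *Pex6*), where 4.11% of all tested genes were called higher, 3.44% lower and 7.55% in either direction. The ISOGK mice all lay above the vehicle mice for the same 5 genes, a pattern that 7.92% of all tested genes showed. The opposite was shown by 7.36% and either of them by 15.3%. As the 8 genes were chosen with earlier results known, their counts beside these shares are a description and no test. The median log2 fold change of the 8 was 0.43, against 0.00 over all tested genes, whose 10th and 90th percentiles were -0.41 and 0.40. None of the 8 passed a further threshold of an absolute log2 fold change over 1, which 1.63% of tested genes passed together with the adjusted p. ISOGK mice 2 and 4 were each the highest of their group for 3 of the 8 genes, and vehicle mouse 4 was the highest of its group for 5. When libraries were scaled by their totals alone, all genes shifted by a median of -0.13 on the log2 scale, and the calls became 3 higher and 1 lower (background 2.13% and 6.53%). Relative to the median of all genes, the log2 fold changes barely moved between the scalings, from 0.76 to 0.76 for *Pex11a* and from -0.35 to -0.35 for *Pex6*. Liver tissue was sequenced in bulk, so more mRNA per cell and more cells holding it cannot be told apart.

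**Figure D1:**
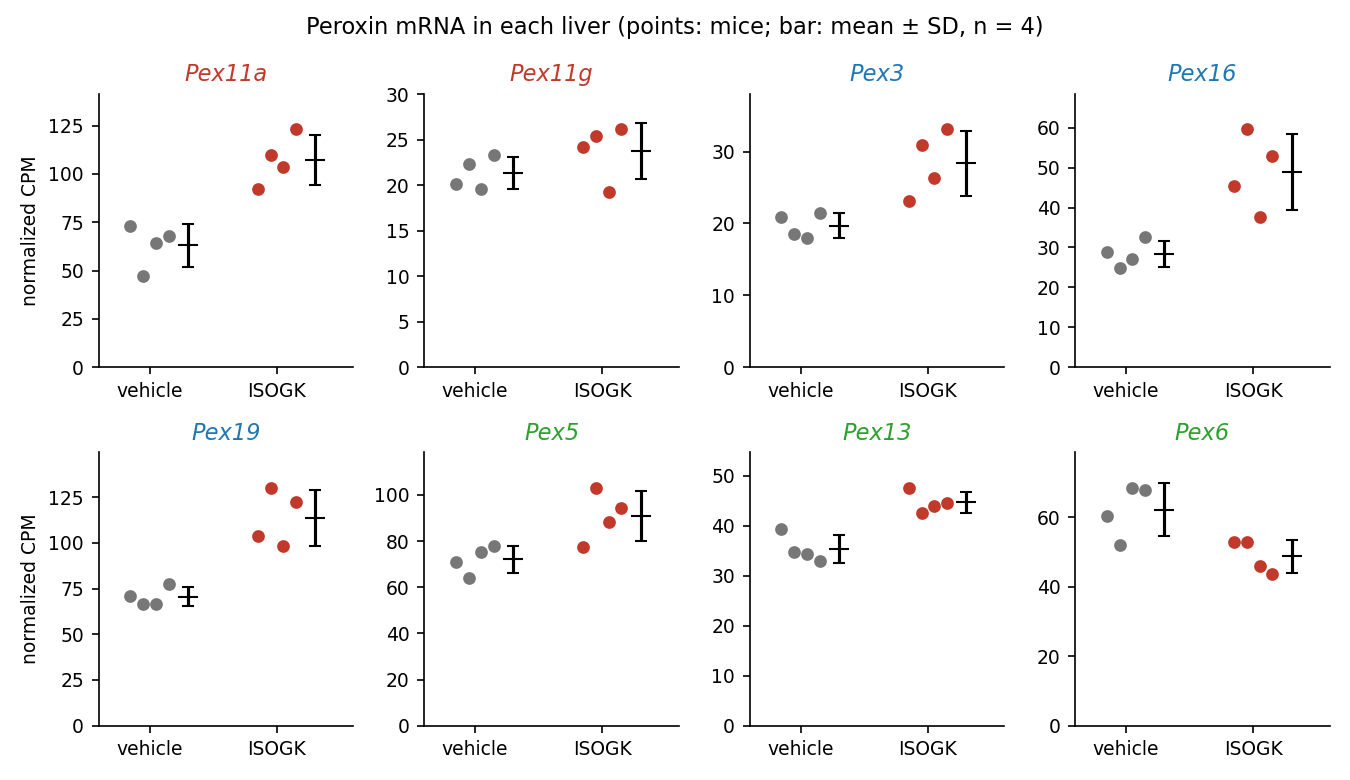
Normalized CPM (vertical axis, from 0) of the 8 peroxins in each liver, with grey points for vehicle mice, red points for ISOGK mice and a black bar for the mean ± SD (n = 4). Red titles mark the Pex11 genes, blue titles the membrane insertion genes and green titles the import genes; the groups do not overlap for Pex11a, Pex3, Pex16, Pex19 and Pex13.

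The pair of *Pex11* genes did not behave alike. *Pex11a* (ENSMUSG00000030545, minus strand of chromosome 7, 79735957 to 79743131 in GRCm38) encodes the inducible protein of the family. It was measured at 73.0, 47.2, 64.2 and 67.9 CPM in vehicle mice 1 to 4 and at 92.1, 110.0, 103.6 and 123.1 CPM in ISOGK mice 1 to 4. Every ISOGK mouse lay above every vehicle mouse, and vehicle mouse 2 was the lowest of all. The group means were 63.1 ± 11.2 and 107.2 ± 12.95 CPM (SD, n = 4), a 1.70-fold difference with a log2 fold change of 0.77 (SE 0.14, 95% interval 0.47 to 1.06, adjusted p = 0.00651 in edgeR). *Pex11a* passed the test under all 16 alternative settings, with adjusted p from 2.14e-05 to 0.022 over the edgeR, DESeq2 and limma-voom fits. A two-sided exact permutation test on log2 CPM gave p = 0.0286, which is as low as 4 mice against 4 can reach.

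*Pex11g* (ENSMUSG00000069633, minus strand of chromosome 8, 3457105 to 3467680) encodes the PEX11 gamma protein, which acts with its relatives in membrane elongation. Its level was 20.2, 22.3, 19.6 and 23.3 CPM in the vehicle mice and 24.2, 25.4, 19.2 and 26.1 CPM in the ISOGK mice. ISOGK mouse 3 was the lowest of all 8 mice and the other ISOGK mice were above all vehicle mice, so the groups overlapped. The log2 fold change was 0.15 (SE 0.11, 95% interval -0.09 to 0.40, adjusted p = 0.445 in edgeR; two-sided exact permutation p = 0.257), and 0 of 16 alternative settings gave a call. The upper bound of the interval lies below the lower bound for *Pex11a*. Gm44775, a gene on the opposite strand without an entry in the table, shares 1396 exonic bases with *Pex11g*, and whether the counting used strand is not given in the sources used here, so reads of the 2 genes cannot be told apart. *Pex11a* shares no exonic base with another gene of the GENCODE annotation.

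The ratio of *Pex11a* to *Pex11g* CPM, chosen after their values were seen and so given without a test, was 3.62, 2.12, 3.27 and 2.91 in the vehicle mice and 3.81, 4.32, 5.39 and 4.71 in the ISOGK mice.

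The genes on either side of the pair were examined to see whether their surroundings moved with them. On each side the nearest gene start with an entry in the table was taken. Genes without an entry were passed over, so the genes named need not be the adjacent ones. *Kif7* and *Wdr93*, the neighbours of *Pex11a*, had 4 to 16 and 6 to 16 counts in a library and did not pass the filter. *Wdr93* (79742948 to 79785952) overlaps *Pex11a* at its transcription start, and *Tex45* (3466713 to 3487183) overlaps *Pex11g* at its transcription start. The printed stretches upstream of *Pex11a* and *Pex11g* therefore lie within the spans of *Wdr93* and *Tex45*. *Arhgef18*, next to *Pex11g*, was at 26.7 ± 2.28 and 27.6 ± 4.05 CPM, with a log2 fold change of 0.05 (adjusted p = 0.841 in edgeR), and *Tex45* on the other side had 0 to 3 counts. None of the neighbours taken in this way was both abundant enough to test and called.

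All 3 genes of membrane protein insertion rose. *Pex16* (ENSMUSG00000027222, plus strand of chromosome 2, 92374676 to 92381217) encodes a membrane peroxin that helps to recruit PEX3. It was measured at 28.9, 24.8, 27.1 and 32.7 CPM in the vehicle mice and at 45.3, 59.6, 37.5 and 52.8 CPM in the ISOGK mice. The groups were apart, and the ISOGK mice spread the widest of any member (19.5% of the mean). The log2 fold change of 0.78 (SE 0.14, 95% interval 0.48 to 1.09, adjusted p = 0.00665 in edgeR) was the largest of the 8 members and of all 16 peroxins tested, a 1.72-fold rise. It shares 127 exonic bases with *Large2* on the opposite strand, which itself had 2 to 7 counts.

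*Pex19* (ENSMUSG00000003464, plus strand of chromosome 1, 172126755 to 172136493) encodes the cytosolic chaperone and receptor of peroxisomal membrane proteins. It was measured at 70.9, 66.7, 66.5 and 77.6 CPM in the vehicle mice and at 103.8, 130.2, 98.3 and 122.2 CPM in the ISOGK mice. The lowest ISOGK mouse lay well above the highest vehicle mouse, and the vehicle mice lay close together. The log2 fold change was 0.69 (SE 0.11, adjusted p = 0.00349 in edgeR, below that of any other member), a 1.61-fold rise from 70.4 ± 5.197 to 113.6 ± 15.1 CPM. *Pex16* and *Pex19* passed under all 16 alternative settings.

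*Pex3* (ENSMUSG00000019809, minus strand of chromosome 10, 13523842 to 13553142) encodes the membrane anchor on which PEX19 docks. Its level was 20.9, 18.5, 17.9 and 21.4 CPM in the vehicle mice and 23.1, 31.0, 26.3 and 33.1 CPM in the ISOGK mice. ISOGK mouse 1 lay just above the highest vehicle mouse, and ISOGK mice 2 and 4 were the farthest from it. The 1.44-fold rise had a log2 fold change of 0.53 (SE 0.12, adjusted p = 0.0256 in edgeR) and passed under 10 of 16 alternative settings, with adjusted p from 0.00401 to 0.0904. It was lost without vehicle mouse 1, 2 or 3 or without ISOGK mouse 2 or 4, and with scaling by library totals alone (adjusted p = 0.0508). *Pex3* shares exonic bases with *Adat2* on the opposite strand, which had 33 to 49 counts.

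The 3 members of matrix protein import went different ways. *Pex13* (ENSMUSG00000020283, minus strand of chromosome 11, 23646479 to 23665959), a membrane component of the docking site, was measured at 39.4, 34.8, 34.3 and 32.9 CPM in the vehicle mice and at 47.6, 42.5, 44.0 and 44.5 CPM in the ISOGK mice. The groups did not overlap, and the ISOGK mice were the tightest of any member (4.75% of the mean). The rise was 1.26-fold, with a log2 fold change of 0.34 (SE 0.09, adjusted p = 0.0393 in edgeR). It held under 7 of 16 alternative settings, and without vehicle mouse 2, 3 or 4 or ISOGK mouse 1, 2 or 4 the adjusted p lay between 0.0597 and 0.116. It shares 2 exonic bases with *Pus10* on the opposite strand.

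*Pex5* (ENSMUSG00000005069, minus strand of chromosome 6, 124396816 to 124415067) encodes the receptor that recognises most matrix enzymes. It was measured at 70.9, 64.2, 75.4 and 77.9 CPM in the vehicle mice and at 77.6, 103.1, 88.3 and 94.5 CPM in the ISOGK mice. ISOGK mouse 1 fell just under vehicle mouse 4, and the other ISOGK mice were above every vehicle mouse. The log2 fold change was 0.33 (SE 0.11, 95% interval 0.10 to 0.56, adjusted p = 0.0761 in edgeR; two-sided exact permutation p = 0.0571). It passed in DESeq2 (adjusted p = 0.041) and without ISOGK mouse 1 (0.04), and in none of the other 14 settings.

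*Pex6* (ENSMUSG00000002763, plus strand of chromosome 17, 46711463 to 46725541) encodes an ATPase that helps to extract PEX5 from the membrane. Its level was 60.4, 52.1, 68.5 and 68.0 CPM in the vehicle mice and 53.0, 52.8, 45.9 and 43.5 CPM in the ISOGK mice. Vehicle mouse 2 lay among the ISOGK mice, and the other vehicle mice were above them all. The log2 fold change was -0.35 (SE 0.11, 95% interval -0.59 to -0.11, adjusted p = 0.0762 in edgeR; two-sided exact permutation p = 0.0857), the lowest of the 8 members. *Pex6* passed as lower in DESeq2 (adjusted p = 0.0464) and with scaling by library totals alone (log2 fold change -0.48, adjusted p = 0.038).

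**Figure D2:**
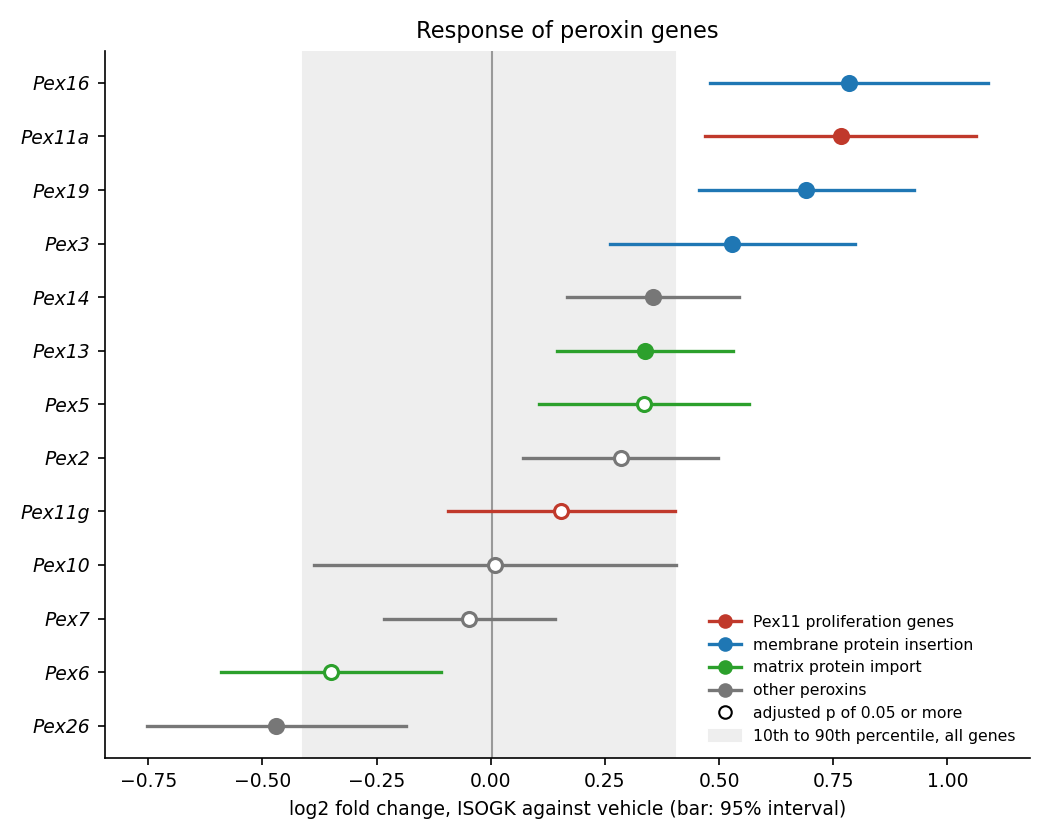
Log2 fold change of ISOGK against vehicle (horizontal axis) for the tested peroxins named in the text, with points for the edgeR estimate, bars for the 95% interval, filled points for an adjusted p under 0.05 and a grey band for the 10th to 90th percentile of all genes. The membrane insertion genes and Pex11a sit at the top between 0.53 and 0.78, and Pex6 and Pex26 sit at the bottom at -0.35 and -0.47.

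To compare the *Pex11* genes with the import and insertion genes directly, the difference in log2 CPM between *Pex11a* or *Pex11g* and each of the 6 other members was taken within each mouse. This measure hardly depends on how libraries are scaled. Of the 12 ratios computed, 2 were higher in every ISOGK mouse, 2 were lower in every ISOGK mouse and 8 overlapped. The p-values below are from two-sided exact permutation tests, unadjusted, with 0.0286 as the smallest p they can give.

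*Pex11a* was higher relative to *Pex5* and *Pex6* in every ISOGK mouse. Its log2 ratio to *Pex6* was 0.27, -0.14, -0.09 and 0.00 in the vehicle mice and 0.80, 1.06, 1.17 and 1.498 in the ISOGK mice, a difference of 1.12 (SE 0.17, exact p = 0.0286). *Pex11a* and *Pex6* thus went from about equal CPM to a ratio of 2.19. Against *Pex5* the log2 ratio was 0.04, -0.44, -0.23 and -0.20 in the vehicle mice and 0.25, 0.09, 0.23 and 0.38 in the ISOGK mice, a difference of 0.44 (SE 0.12, exact p = 0.0286). Against *Pex13* the difference was of like size, 0.44, but with a larger spread (SE 0.17, exact p = 0.0571), and ISOGK mouse 1 lay within the vehicle range. The ratios of *Pex11a* to *Pex16* and *Pex19* differed by 0.01 (SE 0.16, exact p = 1) and 0.09 (SE 0.14, exact p = 0.543). The ratio to *Pex3* differed by 0.26 (SE 0.12, exact p = 0.0571). For these 3 insertion genes the groups overlapped, so no difference in response from *Pex11a* was detectable with 4 mice a group.

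*Pex11g* was lower relative to *Pex16* and *Pex19* in every ISOGK mouse. Its log2 ratio to *Pex19* was -1.81, -1.58, -1.76 and -1.73 in the vehicle mice and -2.10, -2.35, -2.35 and -2.22 in the ISOGK mice, a difference of -0.54 (SE 0.08, exact p = 0.0286). Against *Pex16* the difference was -0.62 (SE 0.11, exact p = 0.0286), with every ISOGK mouse below every vehicle mouse. The ratio to *Pex3* differed by -0.37 (SE 0.13, exact p = 0.0571), with ISOGK mouse 1 inside the vehicle range. Against the import genes the differences were -0.18 for *Pex5* (exact p = 0.257), -0.19 for *Pex13* (exact p = 0.257) and 0.49 for *Pex6* (exact p = 0.0571), and all of these overlapped. The ratios that separated the groups were thus those of *Pex11a* to *Pex5* and *Pex6* and of *Pex11g* to *Pex16* and *Pex19*. No import or insertion gene was separated from both. The split is not sharp, since *Pex11g* to *Pex6* overlapped at 0.49 while *Pex11a* to *Pex5* was separated at 0.44. How often ratios of other gene pairs separate the groups was not computed.

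**Figure D3:**
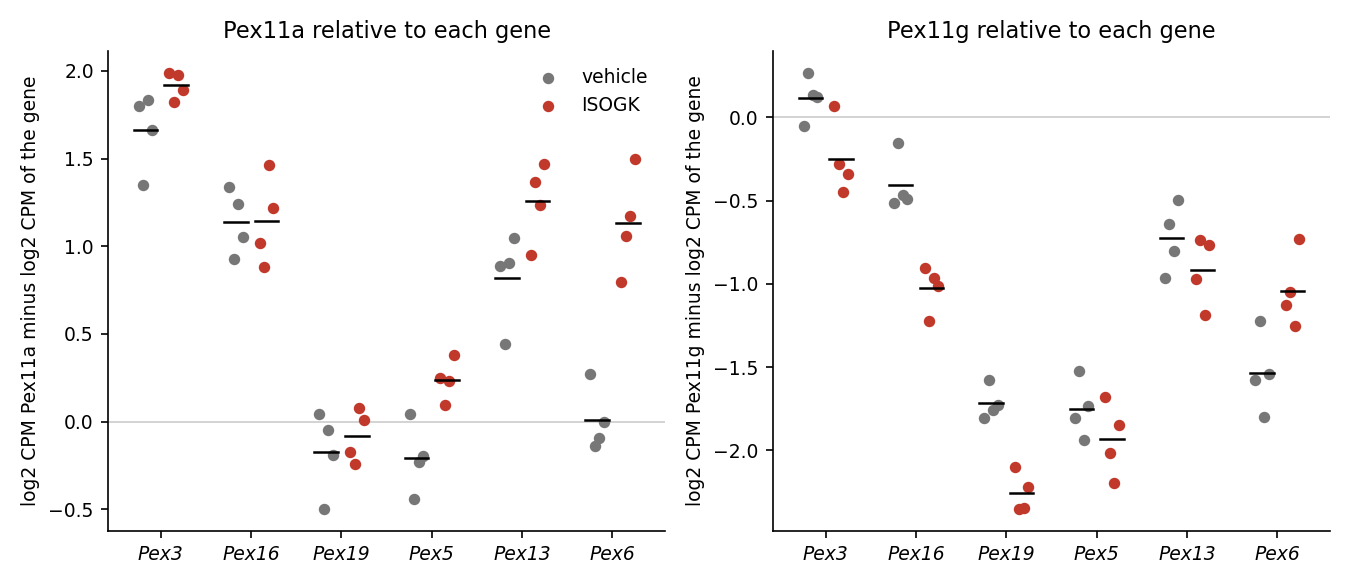
Log2 CPM of Pex11a (left) and Pex11g (right) minus the log2 CPM of each other member (vertical axis) in the same mouse, with grey points for vehicle mice, red points for ISOGK mice and black lines for group means (n = 4). The groups are apart for Pex11a over Pex5 and Pex6 (ISOGK above) and for Pex11g over Pex16 and Pex19 (ISOGK below).

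Of the other 9 peroxins, 8 passed the filter, and 2 were higher (*Pex14* among them), 1 was lower (*Pex26*) and 5 were not called, with a median log2 fold change of 0.21. The calls of *Pex14* and *Pex26* were each lost when any 1 vehicle mouse, or ISOGK mouse 2, was left out. *Pex14*, the partner of PEX13 in docking, was measured at 39.7, 37.6, 39.4 and 41.9 CPM in the vehicle mice and at 47.7, 55.8, 47.8 and 51.6 CPM in the ISOGK mice. The groups were apart, with a log2 fold change of 0.36 (SE 0.09, adjusted p = 0.030 in edgeR), close to the 0.34 of *Pex13*. The call for *Pex14* held under 8 of 16 alternative settings. The CPM ratio of *Pex14* to *Pex13* was 1.13 ± 0.112 and 1.14 ± 0.131 (SD, n = 4), given without a test since it was chosen after the values were seen.

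*Pex26* encodes the membrane anchor that holds PEX6 at the peroxisome. Its level was 19.0, 19.9, 25.2 and 23.9 CPM in the vehicle mice and 13.7, 14.8, 16.2 and 18.9 CPM in the ISOGK mice. The highest ISOGK mouse lay just below the lowest vehicle mouse. The log2 fold change of -0.47 (SE 0.13, 95% interval -0.75 to -0.19, adjusted p = 0.0489 in edgeR) was the only fall called among the 16 tested peroxins, and it held under 7 of 16 alternative settings. *Pex6* and *Pex26* thus both had negative values, of which that of *Pex26* was called.

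*Pex2* and *Pex10* encode ring proteins that attach ubiquitin to PEX5 so that it can be extracted. Their log2 fold changes were 0.28 and 0.01, with edgeR adjusted p of 0.103 and 0.984, and the groups overlapped for each. With scaling by library totals alone, *Pex10* turned to -0.12. *Pex7*, the receptor for the minority of enzymes with an N-terminal signal, was at 47.2 ± 1.22 and 45.7 ± 3.69 CPM, with a log2 fold change of -0.05 (adjusted p = 0.786 in edgeR, 95% interval -0.23 to 0.14). *Pex5l*, a relative of *Pex5* known from brain, had 0 to 7 counts and was not tested.

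Levels of different genes were compared as CPM per kilobase of annotated exon. In the vehicle mice *Pex11a* had the highest mean, 19.8 ± 3.51 CPM per kb (SD, n = 4), followed by *Pex19* at 18.5, *Pex5* at 18.3, *Pex6* at 16.4 and *Pex16* at 15.99, and each of these overlapped with the next. *Pex2* at 11.3 lay apart from *Pex16*, and *Pex13* at 7.61 lay apart from *Pex14* at 6.32. *Pex14* and *Pex11g* at 6.28 overlapped, and *Pex3* at 4.15 overlapped with *Pex7* at 3.91. *Pex10* at 0.763 closed the order of the tested genes. With ISOGK *Pex11a* remained first at 33.7 ± 4.07 CPM per kb, *Pex16* moved from the fifth place to the third at 27.5, and *Pex6* moved from the fourth to the sixth at 12.9. *Pex11g* was at 6.28 and 6.99 CPM per kb.

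**Figure D4:**
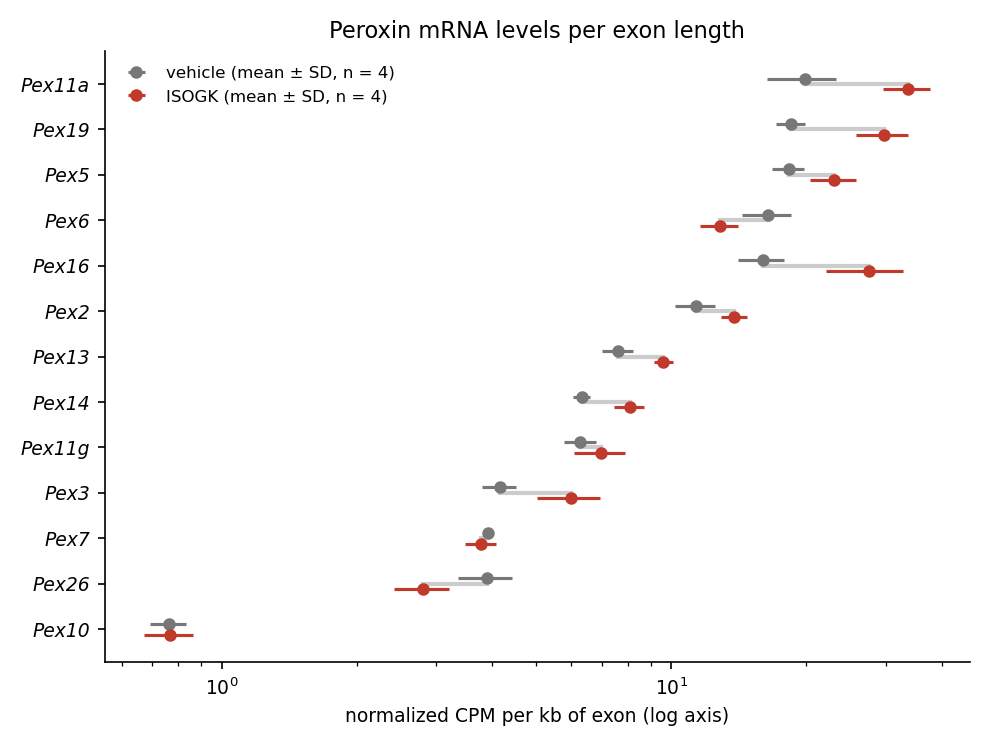
Mean normalized CPM per kb of exon (horizontal log axis, bars for the SD, n = 4) of the tested peroxins named in the text in vehicle mice (grey) and ISOGK mice (red), ordered by the vehicle level and joined by a grey line. Pex11a leads both groups, at 19.8 and 33.7 CPM per kb, and Pex6 falls from the fourth place to the sixth.

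Across the 8 libraries, the tested genes whose log2 CPM was most like that of *Pex11a* were *Eif3c* (Pearson r = 0.99), *H3c15* (0.99), *Eif3b* (0.99), *Mgll* (0.99) and *Def8* (0.98). These values share the libraries and the group difference, and with the group means removed they were 0.96, 0.95, 0.96, 0.93 and 0.92. Both sets are high through the choice, since the genes were picked as the highest r among 12307 tested genes in the same 8 libraries. *Mgll*, monoacylglycerol lipase, rose from 86.8 ± 14.2 to 159.4 ± 22.1 CPM (log2 fold change 0.88, adjusted p = 0.00336 in edgeR). *Def8* and *H3c15* were also called higher, the latter at only 0.507 and 1.27 CPM. *Eif3c* and *Eif3b* were not called (adjusted p = 0.175 and 0.104 in edgeR). The genes most like *Pex11g* were *Gpn2* (0.98), *Dhrs7b* (0.98), *Thg1l* (0.97), *Gmpr* (0.97) and *Gm44805* (0.97), for each of which the groups overlapped. *Pex11a* and *Pex11g* themselves had r = 0.42 over the 8 libraries and 0.03 with the group means removed.

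Other peroxisome genes were taken from lists and counted in the same fit. In fission and tethering, which cut the elongated peroxisome and fix it to the endoplasmic reticulum, 10 genes were tested, 1 was higher and 9 were not called (10% called, beside 7.55% of all tested genes), with a median log2 fold change of -0.01. That share is near the background and is no result about these genes. The 1 called gene was *Mff*, the adaptor that brings the fission GTPase to the membrane, at 20.8 ± 0.824 and 27.2 ± 3.66 CPM (log2 fold change 0.39, adjusted p = 0.0465 in edgeR). It held under 5 of 16 alternative settings. *Dnm1l* and *Fis1*, the other core genes of fission, had log2 fold changes of -0.27 and 0.15 with edgeR adjusted p of 0.294 and 0.572.

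Among 10 membrane transporters and channels, 4 were higher, 0 were lower and 6 were not called, beside 4.11% of all tested genes called higher, and the median was again -0.01. The count fell to 2 without vehicle mouse 2, without ISOGK mouse 2 and with scaling by library totals alone. The smallest adjusted p were those of *Abcd3*, a carrier of fatty acids into the peroxisome (272 ± 17.2 to 465 ± 69.1 CPM, log2 fold change 0.77, adjusted p = 0.00269 in edgeR), *Tmem135* (0.47, adjusted p = 0.00813) and *Pxmp4* (0.88, adjusted p = 0.0225). Proteins of the peroxisomal membrane are the clients of PEX19. Among 7 genes of pexophagy and receptor turnover, 1 was higher, the autophagy receptor *Sqstm1* (log2 fold change 0.57, adjusted p = 0.00467 in edgeR), and 6 were not called. A single call among 7 genes, where 4.11% of all tested genes were higher, says little of the list.

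The enzymes that PEX5 and PEX7 carry into the matrix were also counted: of 37 tested, 17 were higher, 1 was lower and 19 were not called, beside 4.11% and 3.44% of all tested genes, with a median log2 fold change of 0.32 (0.00 over all tested genes). As this list too was chosen with earlier results known, its count is a description and no test. The 18 calls fell to 10 without vehicle mouse 2 and to 11 without vehicle mouse 1. *Ehhadh*, the bifunctional enzyme of peroxisomal beta-oxidation, was at 309 ± 29.6 and 1837 ± 194 CPM, a 5.95-fold rise (adjusted p = 4.65e-07 in edgeR). *Ephx2*, soluble epoxide hydrolase, rose 1.74-fold (adjusted p = 0.00139). On the log2 scale the fold change of *Ehhadh* was 2.57, against 0.33 for its receptor *Pex5*. As a description, the CPM ratio of *Ehhadh* to *Pex5* was 4.16 to 4.47 in the vehicle mice and 18.4 to 22.2 in the ISOGK mice. *Cat*, catalase, the classic matrix marker, had 2512 ± 174 and 2461 ± 180 CPM, with -0.03 as its log2 fold change (adjusted p = 0.89). *Cat* was named after its value was seen.

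*Ppara*, the receptor known to control *Pex11a* and *Ehhadh* in rodent liver, was measured at 84.7, 70.6, 73.5 and 79.8 CPM in the vehicle mice and at 68.0, 90.9, 90.7 and 72.5 CPM in the ISOGK mice. The groups overlapped, with a log2 fold change of 0.06 (adjusted p = 0.791 in edgeR), which turned to -0.06 with scaling by library totals alone. None of the 4 genes of PPAR alpha and its partners was called by edgeR, and none had an adjusted p under 0.05 under any of the 16 alternatives. The mRNA of a nuclear receptor does not measure its activity.

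**Figure D5:**
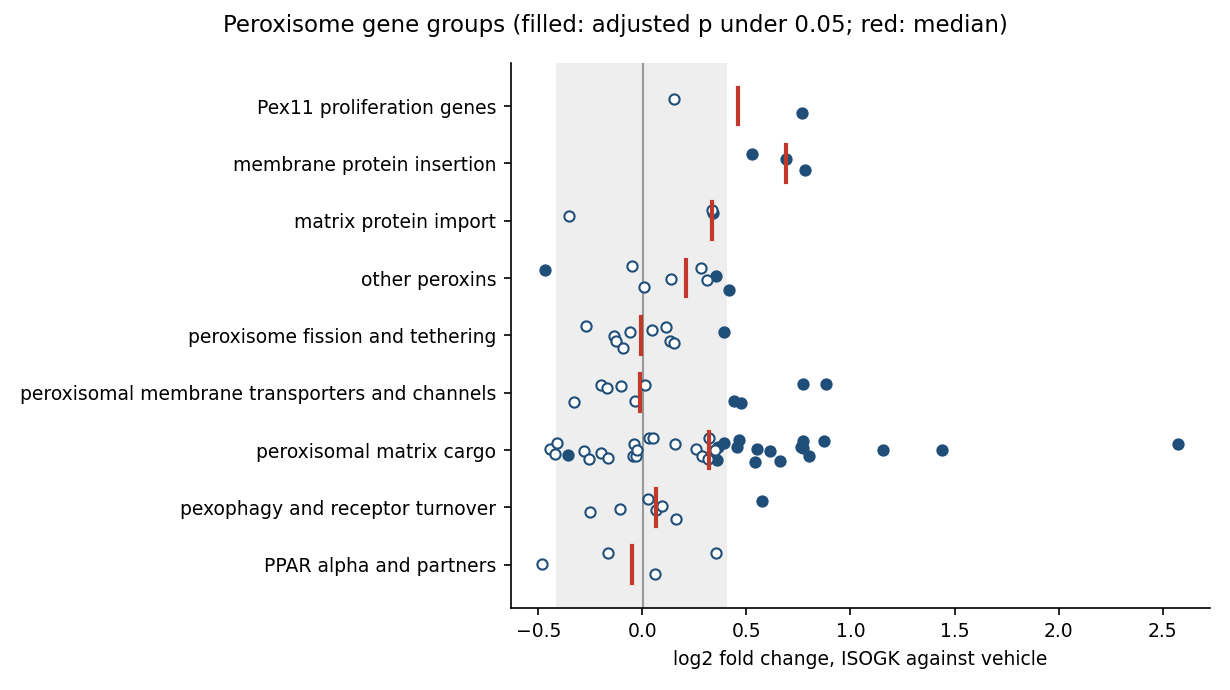
Log2 fold change of ISOGK against vehicle (horizontal axis) for each tested gene (point) of 9 peroxisome gene groups, filled where the edgeR adjusted p was under 0.05, with a red line for the median of the group and a grey band for the 10th to 90th percentile of all genes. All 3 insertion genes are filled between 0.53 and 0.78, and the matrix cargo group spreads from -0.44 to 2.57.

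Cell type markers were set beside these values. Hepatocyte markers summed to 136101 to 147843 CPM in the vehicle mice and 123712 to 159695 CPM in the ISOGK mice, and 0 of 5 were called. Kupffer cell markers summed to 906 to 1066 and 719 to 917 CPM, endothelial markers to 247 to 280 and 242 to 283 CPM, and stellate cell markers to 272 to 364 and 217 to 405 CPM, with 0 of 5 called in each. Cholangiocyte markers summed to 27.5 to 34.8 and 28.2 to 69.1 CPM, with 1 of 5 called (*Sox9*). Skeletal muscle markers reached 1630 counts in vehicle mouse 4 and at most 13 in any other library. The single adipocyte marker of 4 with an entry in the table had 2 to 13 counts. Without vehicle mouse 4, *Pex11a*, *Pex16*, *Pex19* and *Pex3* kept their calls (edgeR adjusted p from 0.009 to 0.0422) and *Pex13* did not (0.102). The part of the Kupffer cell and cholangiocyte markers in the peroxin results was not tested.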

How the data were processed

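Single-end Illumina reads of liver RNA were mapped by the authors with HISAT2, StringTie was their counter, and the labels name the build mm10. The deposited table holds these raw counts, whole numbers per gene symbol, for 16540 genes in 8 libraries, 4 of each group, and 0 of its columns lacked a sample. Libraries were assigned to groups from their labels.

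Genes were filtered with filterByExpr (minimum count 10, minimum total 15), which left 12307, and tested with the quasi-likelihood test (robust option, TMM) of edgeR 4.0.16 in R 4.3.3, with Benjamini-Hochberg adjustment over all genes tested. The common biological coefficient of variation was 0.164. A gene was called at an adjusted p under 0.05. Log2 CPM for ratios and exact permutation tests (scipy 1.17.1) used a prior count of 2. The script was tested on simulated counts. Exons, their lengths and overlaps, and the positions of the peroxins were those of GENCODE M21 (GRCm38). The neighbours of *Pex11a* and *Pex11g* and their positions were from RefSeq. The sources used here describe no molecular identifiers, so the reads counted need not be separate molecules.

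The members and the gene lists were chosen with earlier results of these data known. Genes named were the 8 members, all other peroxins, up to 3 called genes with the smallest adjusted p of each list, *Ppara* and *Ehhadh*, the neighbours of *Pex11a* and *Pex11g*, and the 5 genes most like each. *Dnm1l*, *Fis1* and *Cat*, the genes that share exonic bases with peroxins and the CPM ratios given without a test were chosen after their values were seen. Other tests tried were limma-voom (limma 3.58.1) and DESeq2 1.42.0 (Wald test). Within edgeR, libraries were also scaled by their totals or with DESeq2's size factors, the filter was set to a total of 1 count or to 10 counts in every library, the robust option was dropped, a replicate block was added and each mouse was left out in turn. Ratios were also computed with prior counts of 0.5 and 5. A few such genes are left unnamed and stay in the counts. Protein sequences were not used here.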

Additional observations from a re-analysis of the deposited data

Results flagged for a closer look

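In 56 sets of 4 mice examined for a value far from the rest (member levels, peroxin levels and ratios), 1 stood apart, where chance alone gives 2.8. It was the log2 ratio of *Pex11g* to *Pex16* in vehicle mouse 2, at -0.15, against -0.51 to -0.46 in the other vehicle mice. Its gap to the nearest of them was 0.859 of the whole range, past the 95% limit of Dixon's ratio. The difference between the groups is described above with this mouse included, and without each mouse in turn it lay between -0.66 and -0.54.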

How the results depend on the processing

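The fold changes of all 8 members kept their sign under all 16 alternatives, and *Pex11a*, *Pex16* and *Pex19* kept their call in each. Scaling by library size alone called 3 members higher, 1 lower, 1 other peroxin, 0 fission genes and 2 membrane transporters, and called 262 genes higher and 804 lower in all, against 506 and 423. DESeq2 called 1 member lower (*Pex6*) and, in all, 762 genes higher and 659 lower. The single fission call, *Mff*, also fell to 0 with limma-voom, with no filter beyond 1 count and with the replicate block. Leaving out each mouse in turn gave 3 to 5 members higher, 0 lower, 0 to 3 other peroxins, 0 to 1 fission genes, 2 to 4 membrane transporters, 10 to 17 matrix cargo genes and 4 to 6 ratios without overlap. The calls of *Pex14* and *Pex26* were lost without vehicle mouse 1, 2, 3 or 4 or without ISOGK mouse 2. Over all genes, calls ran from 219 higher and 160 lower without vehicle mouse 2 to 712 and 523 without ISOGK mouse 3. The cause of these changes was not tested.

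Same-numbered mice did not deviate together (correlations of 0.01, -0.01, 0.08 and 0.08), and 1 vehicle mouse matched best with its own number, so the numbers were not taken as pairs. With the replicate block, *Pex13* had an adjusted p of 0.0531 in edgeR, and 411 genes were higher and 416 lower. Taken by number, 8 of the 12 ratios had differences of the same sign in every pair. That is a weaker rule than groups that do not overlap, which 4 ratios met, so the counts are not comparable. Counts of 340 or more per member leave little counting error if reads are separate molecules, and 4 mice a group limit the tests.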
